A study of Mus musculus with 4 samples.

Results

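The iron handling and heme genes are 9 genes that carry iron into the cell, store it, export it and sense it, or that act on products of heme breakdown. They are *Tfrc*, *Steap3*, *Slc11a2*, *Fth1*, *Ftl1*, *Slc40a1*, *Ireb2*, *Aco1* and *Blvrb*, chosen by gene symbol from the 18373 genes of the deposited table. All 9 were found, and all 9 were among the 13628 genes with enough counts for a test. The set was picked because *Slc40a1* was higher in the libraries labelled si*Airn* while other macrophage-linked genes were lower. The comparison of the groups is therefore given for these 9 genes without p-values of their own, and the counts of calls from the test over all genes support nothing about them.

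RNA-seq was performed on primary liver sinusoidal endothelial cells (LSECs) from Balb/c mice 8 weeks old. The cells were purified with anti-CD146 beads after density centrifugation, cultured for 24 h, transfected for 48 h and collected at day 3. The labels give 2 libraries with a control siRNA (NC) and 2 with siRNA against the long noncoding RNA *Airn* (si*Airn*), which carry no other allele or agent. They call the libraries of a group biological replicates but do not name separate mice or cultures, so p-values measure only the spread between these libraries. The protocol speaks of separate siRNAs, whereas both si*Airn* titles name si*Airn*1, and the siRNA given to each library remains unclear here.

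The estimated counts summed to between 17308382 and 18371959 per library. *Airn* itself (gene ID 104103) was counted 7 and 3 times in NC, against 11 and 9 times in the libraries labelled si*Airn*, a scaled ratio of 1.97 with an exact binomial 95% interval from 0.88 to 4.71 for counting error only. The counts of the target were not lower where its siRNA is named, and every direction here follows the labels. All 10 LSEC markers listed were expressed, among them *Stab2*, a scavenger receptor, at 475 and 429 CPM in NC and 410 and 350 CPM in the libraries labelled si*Airn* (CPM, counts scaled to a common library size with TMM factors). Of the 20 LSEC and pan-endothelial markers, 16 were lower by the test across all genes, beside 8.56% of all genes, and none was higher. Without NC replicate 1 this count was 2, and without NC replicate 2 it was 0, where 16 and 17 markers had an unadjusted p under 0.05 in edgeR. The 2 groups are bulk samples, in which fewer cells of a type and less RNA per cell cannot be told apart.

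Cells take up iron as transferrin bound to the transferrin receptor, reduce it in endosomes and move it to the cytosol, where ferritin stores what is not used. Ferroportin, encoded by *Slc40a1*, is the cellular exporter, and the liver hormone hepcidin removes it from the cell surface. Inside the cell, the iron regulatory proteins encoded by *Aco1* and *Ireb2* bind hairpins called iron-responsive elements in mRNAs when iron is scarce, which blocks translation from a 5′ UTR site and stabilises the mRNA from a 3′ UTR site. In the liver, macrophages recycle iron from red cells, hepatocytes store it and make hepcidin, and LSECs send them the signals BMP2 and BMP6 that induce hepcidin.

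The iron-responsive elements are shown because 4 of the 9 genes have transcripts with this sequence feature. The genes were chosen for iron handling, which these elements regulate, so finding the elements in them is no independent result. Transcripts of GENCODE M21 (GRCm38, the C57BL/6J genome, not Balb/c) were searched on the sense strand for a C, 5 bases, the loop CAGTGN and 5 bases that can pair with the first 5, G-T pairs included. Such a match occurred in the 5′ UTR of 31 of 21181 genes (0.146%) and in the 3′ UTR of 144 of 21173 genes (0.68%). In the sequences, written as DNA 5′ to 3′, capitals mark the bulged C and the 6-base loop.
*Slc40a1*, 5′ UTR, chr1:45925465-45925493, minus strand: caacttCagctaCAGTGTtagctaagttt
*Fth1*, 5′ UTR, chr19:9982732-9982760, plus strand: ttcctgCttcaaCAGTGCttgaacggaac
*Ftl1*, 5′ UTR, chr7:45459779-45459807, minus strand: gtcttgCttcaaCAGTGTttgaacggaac
*Tfrc*, 3′ UTR, chr16:32631219-32631247, plus strand: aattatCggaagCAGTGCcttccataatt
*Tfrc*, 3′ UTR, chr16:32631598-32631626, plus strand: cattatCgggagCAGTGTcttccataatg
*Tfrc*, 3′ UTR, chr16:32631663-32631691, plus strand: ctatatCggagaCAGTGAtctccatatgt
*Tfrc*, 3′ UTR, chr16:32631710-32631738, plus strand: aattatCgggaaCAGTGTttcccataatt

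The sites of the ferritin chains were identical at 26 of 29 bases. The 4 sites of *Tfrc* lay in its 3′ UTR and the sites of the other 3 genes in the 5′ UTR. Not every annotated transcript with that region carries the site, which was found in 1 of 4 for *Slc40a1*, 1 of 2 for *Tfrc*, 4 of 5 for *Fth1* and 2 of 3 for *Ftl1*. *Slc11a2*, *Steap3*, *Ireb2*, *Aco1* and *Blvrb* had no match, which says only that these letters with a fully paired stem are not in their annotated UTRs. A match is a description of the sequence and not a measurement of binding.

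Levels are compared between genes as FPKM, which is scaled to transcript length. *Ftl1*, the ferritin light chain, had a mean of 4885 FPKM in NC and 4635 FPKM in the libraries labelled si*Airn*, and it ranked first, first, second and second among all genes in the 4 libraries. *Fth1*, the ferritin heavy chain that oxidises iron for storage, followed at 1921 and 1998 FPKM and ranked between 9 and 19. Together with *Blvrb* (74.0 and 86.9 FPKM) the ferritin chains were above every other gene of the set in all 4 libraries.

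The middle of the order held 4 genes of similar level. In NC, *Slc11a2* had 20.7 FPKM, *Tfrc* 19.2 FPKM, *Aco1* 18.5 FPKM and *Slc40a1* 18.2 FPKM as group means, and each gene's replicate range overlapped that of its neighbour. In the libraries labelled si*Airn*, *Tfrc* stood first of these 4 with 27.97 and 30.25 FPKM, above both values of *Slc40a1* (26.23 and 22.52 FPKM). *Slc11a2* and *Aco1* overlapped there. *Ireb2* was lower at 12.005 and 15.0 FPKM, and *Steap3* was lowest at 1.485 and 1.475 FPKM.

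**Figure D1:**
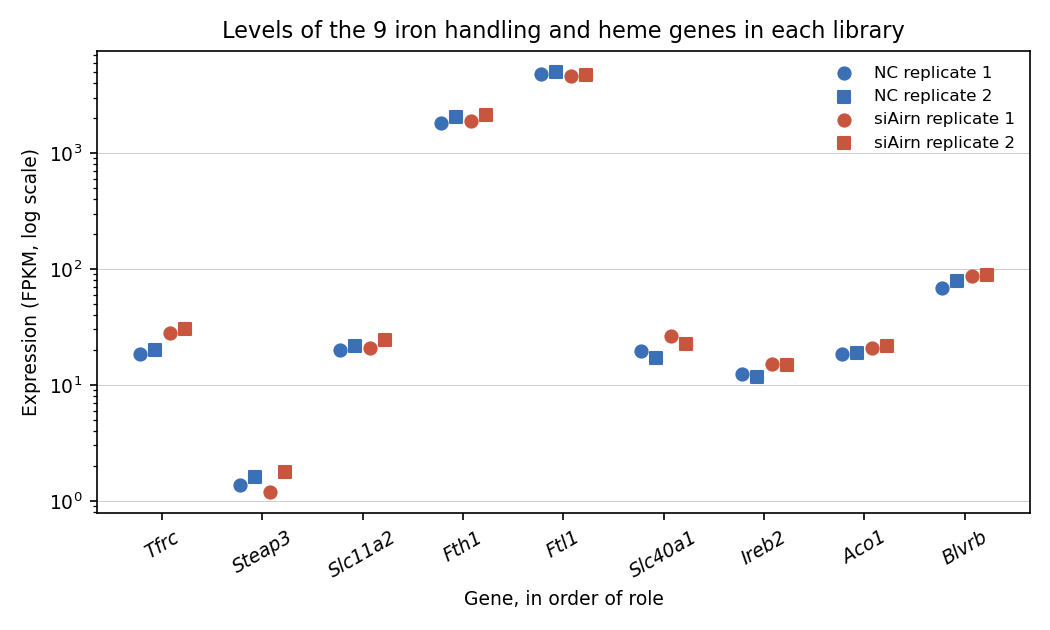
Expression of the 9 genes in FPKM on a log axis, 1 point per library, with NC in blue, si*Airn* in red, replicate 1 as circles and replicate 2 as squares. *Ftl1* and *Fth1* lie highest, with group means from 1921 to 4885 FPKM, *Steap3* lies lowest near 1.48 FPKM, and the red points of *Tfrc* and *Slc40a1* lie above the blue ones.

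Across the 9 genes, *Tfrc*, *Slc40a1* and *Ireb2* had the highest log2 fold changes (0.56, 0.38 and 0.31), the ferritin chains had log2 fold changes of 0.01 and -0.12, and none of the 9 was called lower. The quasi-likelihood test of edgeR was run over all genes, and at a Benjamini-Hochberg adjusted p under 0.05, 3 of the 9 genes were called, all 3 higher, beside 16.8% of all genes tested (8.27% higher). The median log2 fold change of the 9 genes was 0.16, and over all genes tested it was 0.00126. The groups did not overlap for 6 of the 9 genes, beside 62.7% of all genes tested. Of these, 5 were higher (30.9% of all genes) and 1 lower (31.9%). The study's threshold, a fold change over 1.4 and p under 0.05, was taken here with the unadjusted p of edgeR. It called 1 of the 9 genes (*Tfrc*), beside 9.96% of all genes. Nothing is read from these counts, because the set was chosen with this comparison known. The calls changed when a library was left out, and 0 of the 9 genes were called without NC replicate 1 or without NC replicate 2, 1 (*Tfrc*) without si*Airn* replicate 1 and 2 (*Slc40a1* and *Tfrc*) without si*Airn* replicate 2. Without NC replicate 1 or 2, the same edgeR test called 40 and 0 of all genes, although 3506 and 3106 genes had an unadjusted p under 0.05. In those fits the log2 fold changes were 0.50 and 0.62 for *Tfrc*, 0.48 and 0.29 for *Slc40a1*, and 0.35 and 0.27 for *Ireb2*. Their direction could not turn there, because the groups did not overlap for these genes.

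Base composition moved with the result. The log2 fold change had a Spearman's rho of -0.333 with GC content and of 0.364 with transcript length, taken across genes, and genes are no independent replicates. *Ireb2* (39.0% GC), *Tfrc* (39.8%) and *Slc40a1* (41.96%) have the lowest GC content of the 9 genes, and the other 6 range from 50.0% to 58.1%. With a correction for GC content and length fitted in each library, *Tfrc* and *Blvrb* were the 2 genes called, beside 7.8% of all genes.

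**Figure D2:**
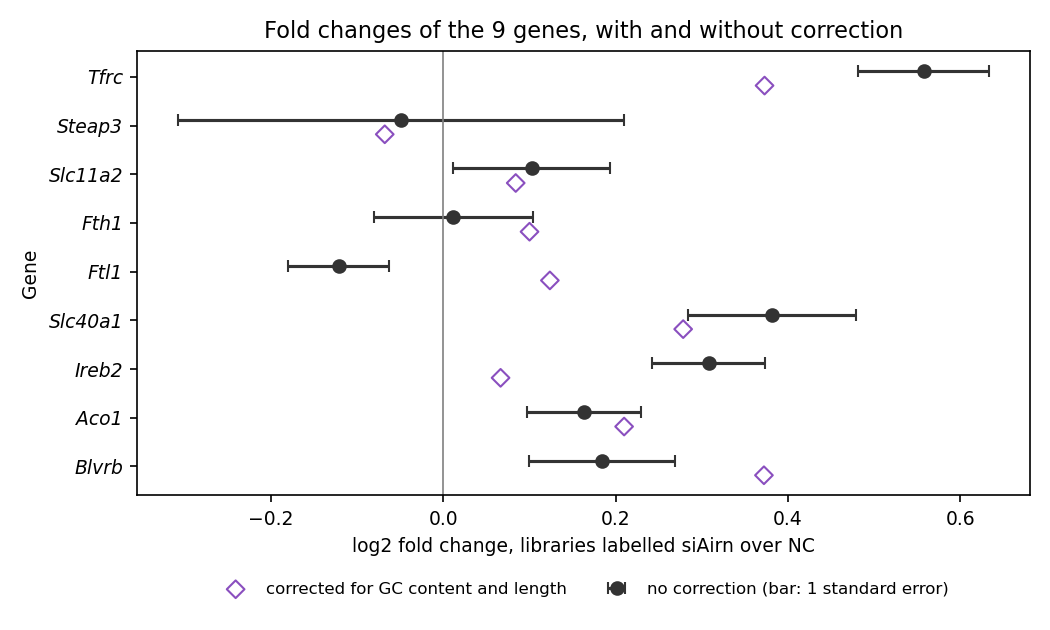
Log2 fold change of the 9 genes, libraries labelled si*Airn* over NC, with bars of 1 standard error from edgeR's fit of 2 against 2 libraries, and open diamonds for the fit corrected for GC content and length. *Tfrc* goes from 0.56 to 0.37, *Ireb2* from 0.31 to 0.07, and *Ftl1* from -0.12 to 0.12.

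Iron enters through the product of *Tfrc* (gene ID 22042, chr16:32608920-32632794 in GRCm38), the receptor that takes transferrin into endosomes. It had 89.3 and 97.1 CPM in NC and 131 and 143 CPM in the libraries labelled si*Airn*. Both of the latter lay above both NC values, and the difference between the groups was larger than the differences within them. The log2 fold change was 0.56 (standard error 0.08), or 47.2% higher, and it ranged from 0.37 to 0.62 over the alternatives.

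*Steap3* (gene ID 68428, chr1:120190757-120272705 in GRCm38), an endosomal reductase that prepares transferrin-borne iron for transport, had low counts, with 63 and 78 counts in NC against 56 and 82 in the libraries labelled si*Airn*. The lowest and the highest values both came from the libraries labelled si*Airn*, so the groups overlapped. Its log2 fold change was -0.05 (standard error 0.26). Its size and direction depended on which library was left out. It was 0.21 without si*Airn* replicate 1, 0.07 without NC replicate 2 and -0.37 without si*Airn* replicate 2.

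*Slc11a2* (gene ID 18174, chr15:100387898-100425072 in GRCm38), the transporter DMT1 that moves reduced iron out of endosomes, had 72.6 and 77.2 CPM in NC and 73.9 and 86.9 CPM in the libraries labelled si*Airn*. The groups overlapped, and si*Airn* replicate 2 was the highest of the 4. Its log2 fold change was 0.10 (standard error 0.09). In GENCODE M21, 6.33% of its exonic bases lie under *Gm5475* on the other strand, and how many of its counts fall on those bases was not measured. Without si*Airn* replicate 2 the log2 fold change was -0.02, and without si*Airn* replicate 1 it was 0.21.

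The ferritin chains store iron in the cytosol. *Fth1* (gene ID 14319, chr19:9980598-9985098 in GRCm38) had 1507 and 1698 CPM in NC and 1494 and 1737 CPM in the libraries labelled si*Airn*. Replicate 2 exceeded replicate 1 in both groups by more than the groups differed. Between the groups the log2 fold change was 0.01, with a standard error of 0.09 and a range from -0.10 to 0.12 when 1 library was left out. *Ftl1* (gene ID 14325, chr7:45457944-45459884 in GRCm38) had 4109 and 4317 CPM in NC and 3796 and 3953 CPM in the libraries labelled si*Airn*. Both values labelled si*Airn* lay below both NC values. The log2 fold change, -0.12 with a standard error of 0.06, was not called and turned to 0.12 once corrected for GC content and length.

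The ratio of *Ftl1* to *Fth1* in FPKM was 2.64 and 2.46 in NC against 2.46 and 2.20 in the libraries labelled si*Airn*, so light chain mRNA was above heavy chain mRNA in each library. *Ftl1* held between 0.386% and 0.425% of all counts and *Fth1* between 0.149% and 0.175%. The level of *Ftl1* is uncertain, because 90.6% of the 50-base windows of its longest transcript occur in transcripts of 17 other genes, among them the pseudogene *Ftl1-ps1*. The share of such windows was 2.88% for *Fth1* and 0 for the other 7 genes. In addition, 26.5% of the exonic bases of *Ftl1* lie under exons of the opposite strand.

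*Slc40a1* (gene ID 53945, chr1:45908068-45926523 in GRCm38), the gene on whose difference the set was picked, encodes ferroportin, the exporter of iron from macrophages, hepatocytes and gut cells. It had 64.1 and 56.2 CPM in NC and 83.9 and 72.8 CPM in the libraries labelled si*Airn*. Both values labelled si*Airn* lay above both NC values, and replicate 1 was the higher in each group. The log2 fold change was 0.38 (standard error 0.10), or 30.3% higher, and it was 0.28 with the correction for GC content and length. It was not among the genes called under that correction, with no filter on low counts or in limma on log2(FPKM + 1) and log2(FPKM + 0.1). Ordered by fold change, it stood at percentile 87.3 of all genes tested and *Tfrc* at percentile 94.0.

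The ratio of *Tfrc* to *Slc40a1* in FPKM, importer over exporter, was 0.945 and 1.18 in NC against 1.07 and 1.34 in the libraries labelled si*Airn*. The groups overlapped in this ratio, and replicate 2 was the higher in both.

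Of the sensors, *Ireb2* (gene ID 64602, chr9:54863789-54912530 in GRCm38) encodes IRP2, which is degraded when iron is plentiful. It had 68.0 and 64.4 CPM in NC and 82.4 and 81.6 CPM in the libraries labelled si*Airn*. The groups did not overlap. The log2 fold change was 0.31, with a standard error of 0.07, or 23.8% higher. It was 0.07 with the correction for GC content and length.

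*Aco1* (gene ID 11428, chr4:40143081-40198338 in GRCm38) encodes IRP1, which is a cytosolic aconitase while it carries an iron-sulfur cluster. It had 77.6 and 79.8 CPM in NC and 85.4 and 90.8 CPM in the libraries labelled si*Airn*. Both values labelled si*Airn* were above both NC values, and the log2 fold change of 0.16 (standard error 0.07) was not called. With the correction it was 0.21. In FPKM, *Ireb2* was between 0.627 and 0.736 of *Aco1* in the 4 libraries. The ratio was 0.673 and 0.627 in NC against 0.736 and 0.677 in the libraries labelled si*Airn*, so the groups did not overlap, although the nearest values were close.

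*Blvrb* (gene ID 233016, chr7:27447978-27466144 in GRCm38) encodes biliverdin reductase B, a flavin reductase that also acts on products of heme breakdown. It had 52.1 and 59.9 CPM in NC and 62.5 and 64.8 CPM in the libraries labelled si*Airn*. The groups did not overlap, but the nearest values of the groups lay closer together than the 2 NC values did. Its log2 fold change was 0.18 (standard error 0.08), and the gene was not called. Leaving out NC replicate 1 gave 0.09, and leaving out NC replicate 2 gave 0.29. Corrected for GC content and length it was 0.37 and called.

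All 9 genes differed between replicates 1 and 2 in the same direction in both groups, beside 62.55% of 13564 genes with counts in every library. *Slc40a1* was lower in replicate 2 by a log2 value of -0.19 in NC and -0.20 in the libraries labelled si*Airn*, and *Ireb2* by -0.08 and -0.01. The other 7 genes were higher in replicate 2, from 0.04 for *Aco1* in NC to 0.58 for *Steap3* in the libraries labelled si*Airn*. For *Fth1* the replicate differences were 0.17 and 0.22, beside a difference of 0.01 between the groups.

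The other genes of iron and heme biology were taken from 5 lists with 87 genes, of which 83 were in the table and 80 were tested. In the same edgeR test, adjusted over all genes, 8 rose, 10 fell and 62 did not pass, where 8.27% of all genes rose and 8.56% fell. The median log2 fold change was -0.05, and it was 0.03 with GC content and length corrected for. Corrected for GC content and length, 10 passed, and without NC replicate 1 or 2 none did, where 31 and 24 had an unadjusted p under 0.05. The adjusted p-values of the lists are from this test.

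In iron transport and storage, 1 of 18 genes tested rose and 3 fell, beside 8.27% and 8.56% of all genes. *Slc11a1*, the phagosomal metal transporter NRAMP1 of macrophages, fell from 9.22 and 13.5 CPM to 5.48 and 5.54 CPM (log2 fold change -1.04, standard error 0.21, adjusted p = 0.0208 in edgeR). Macrophage markers, given below, had a median log2 fold change of -0.78 in the same libraries. The part of macrophages in the fall of *Slc11a1* was not tested. *Slc39a8*, a plasma membrane importer of zinc and iron, fell from 25.7 and 27.3 CPM to 20.4 and 16.96 CPM (-0.50, adjusted p = 0.0293 in edgeR). The third was *Cyb561a3*, a lysosomal ferric reductase, with -0.31. That call was lost with the correction (-0.22), in DESeq2 and in limma with a pseudocount of 1. The call of *Slc39a8* was lost in both limma fits.

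*Ncoa4*, the receptor that delivers ferritin to lysosomes, rose from 111 and 114 CPM to 130 and 133 CPM (0.23, adjusted p = 0.043 in edgeR), and it was 0.12 and not called with the correction for GC content and length. DESeq2, upper-quartile normalization and the fit without a filter did not call it either. *Slc39a14*, an importer of iron not bound to transferrin, had 37.6, 37.4, 42.5 and 52.4 CPM in the order NC 1, NC 2, si*Airn* 1 and si*Airn* 2 and did not pass. Transferrin itself (*Trf*, 89.5, 102, 109 and 148 CPM) and ceruloplasmin (*Cp*, 15.1, 26.4, 21.7 and 40.7 CPM), the plasma ferroxidase, did not pass either.

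Among genes of iron sensing and of the hepcidin pathway, 1 of 12 tested rose and 5 fell, beside 8.27% and 8.56% of all genes. The 10 LSEC markers, of which 9 fell, had a median log2 fold change of -0.60 in the same libraries, and the part of LSECs in these falls was not tested. *Bmp2*, an LSEC signal that induces hepcidin in hepatocytes, fell from 260 and 257 CPM to 186 and 178 CPM (log2 fold change -0.50, standard error 0.06, adjusted p = 0.00683 in edgeR). *Bmp6*, the other such signal, fell from 238 and 215 CPM to 158 and 121 CPM (-0.70, standard error 0.12, adjusted p = 0.0154 in edgeR). *Hfe*, the hemochromatosis gene whose product binds the transferrin receptor, fell from 29.6 and 30.3 CPM to 20.0 and 19.7 CPM (-0.59, adjusted p = 0.00969 in edgeR). These 3 genes also passed when GC content and length were corrected for.

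The BMP target *Id1* fell (-0.54), and *Neo1*, a hemojuvelin receptor, rose (0.57). Neither passed with that correction, where *Id1* was at -0.32 and *Neo1* at 0.39. *Fbxl5*, the iron-sensing ligase subunit that marks IRP2 for degradation, had 58.1 and 60.8 CPM in NC and 56.3 and 57.0 CPM in the libraries labelled si*Airn* and did not pass. *Hamp*, hepcidin itself, had 103 and 120 counts in NC against 135 and 170 in the libraries labelled si*Airn* and did not pass (0.43, adjusted p = 0.139 in edgeR).

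For heme transport and degradation, 4 of 15 genes tested rose and none fell, beside 8.27% and 8.56% of all genes. Markers of hepatocytes and stellate cells, given below, had median log2 fold changes of 0.60 and 0.42 in the same libraries. The part of those cells in these rises was not tested. *Hmox1*, the inducible heme oxygenase that frees iron from heme, rose from 876 and 782 CPM to 1073 and 966 CPM (log2 fold change 0.30, standard error 0.08, adjusted p = 0.0494 in edgeR). The value was 0.47 and called with the correction for GC content and length, whereas the call was lost with upper-quartile normalization, with no filter on low counts and in both limma fits (adjusted p from 0.0516 to 0.0565). *Hmox2*, the constitutive form, had 134, 139, 118 and 123 CPM in the 4 libraries and did not pass. The ratio of *Hmox1* to *Hmox2* in FPKM was 5.51 and 4.73 in NC against 7.85 and 6.79 in the libraries labelled si*Airn*.

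*Bach1*, the heme-binding repressor of *Hmox1* and of the ferritin genes, rose as well, from 47.0 and 45.1 CPM to 67.5 and 62.9 CPM (0.50, standard error 0.07, adjusted p = 0.00989 in edgeR). *Lrp1*, the hemopexin receptor, rose by 0.54 (0.34 without si*Airn* replicate 2), and *Flvcr2*, with 23 and 23 counts in NC against 44 and 57 in the libraries labelled si*Airn*, by 1.11. Neither passed with the correction, where *Lrp1* was at 0.39 and *Flvcr2* at 1.15. *Flvcr2* was not called in DESeq2, with upper-quartile normalization or without the filter either. The heme exporter *Flvcr1* (22.1, 23.0, 23.9 and 26.1 CPM) and the lysosomal heme carrier *Slc48a1* (225, 218, 212 and 225 CPM) did not pass. *Flvcr2* was named after its values were seen.

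In heme synthesis, 1 of 11 genes tested rose and none fell, beside 8.27% and 8.56% of all genes. *Cpox*, coproporphyrinogen oxidase, rose from 37.1 and 35.8 CPM to 50.2 and 47.6 CPM (log2 fold change 0.43, standard error 0.08, adjusted p = 0.0153 in edgeR). *Alas1*, the first enzyme of the pathway in most tissues, had 70.6, 72.1, 66.8 and 67.3 CPM, and *Fech*, which inserts the iron, had 52.5, 54.9, 54.5 and 56.2 CPM. Neither passed.

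The assembly of iron-sulfur clusters, the other main use of iron besides heme, gave 1 higher and 2 lower of 24 genes tested. Over all genes, 8.27% were higher and 8.56% lower. *Hspa9*, the mitochondrial chaperone mortalin, rose from 742 and 737 CPM to 902 and 943 CPM (log2 fold change 0.32, standard error 0.06, adjusted p = 0.0171 in edgeR). *Hscb*, its co-chaperone in cluster transfer, fell from 17.7 and 15.6 CPM to 10.5 and 11.1 CPM (-0.63, adjusted p = 0.0192 in edgeR). With the correction for GC content and length *Hscb* was at -0.48 and not called. *Ciao1*, of the cytosolic assembly machinery, fell by 0.30 on the log2 scale, from 62.4 and 66.7 CPM to 52.2 and 53.0 CPM, a call that DESeq2 and both limma fits did not make. The median of the list was -0.13, or -0.04 corrected for GC content and length. A value below 0 was found for 19 of the 24 genes and for 6794 of the 13628 genes tested.

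**Figure D3:**
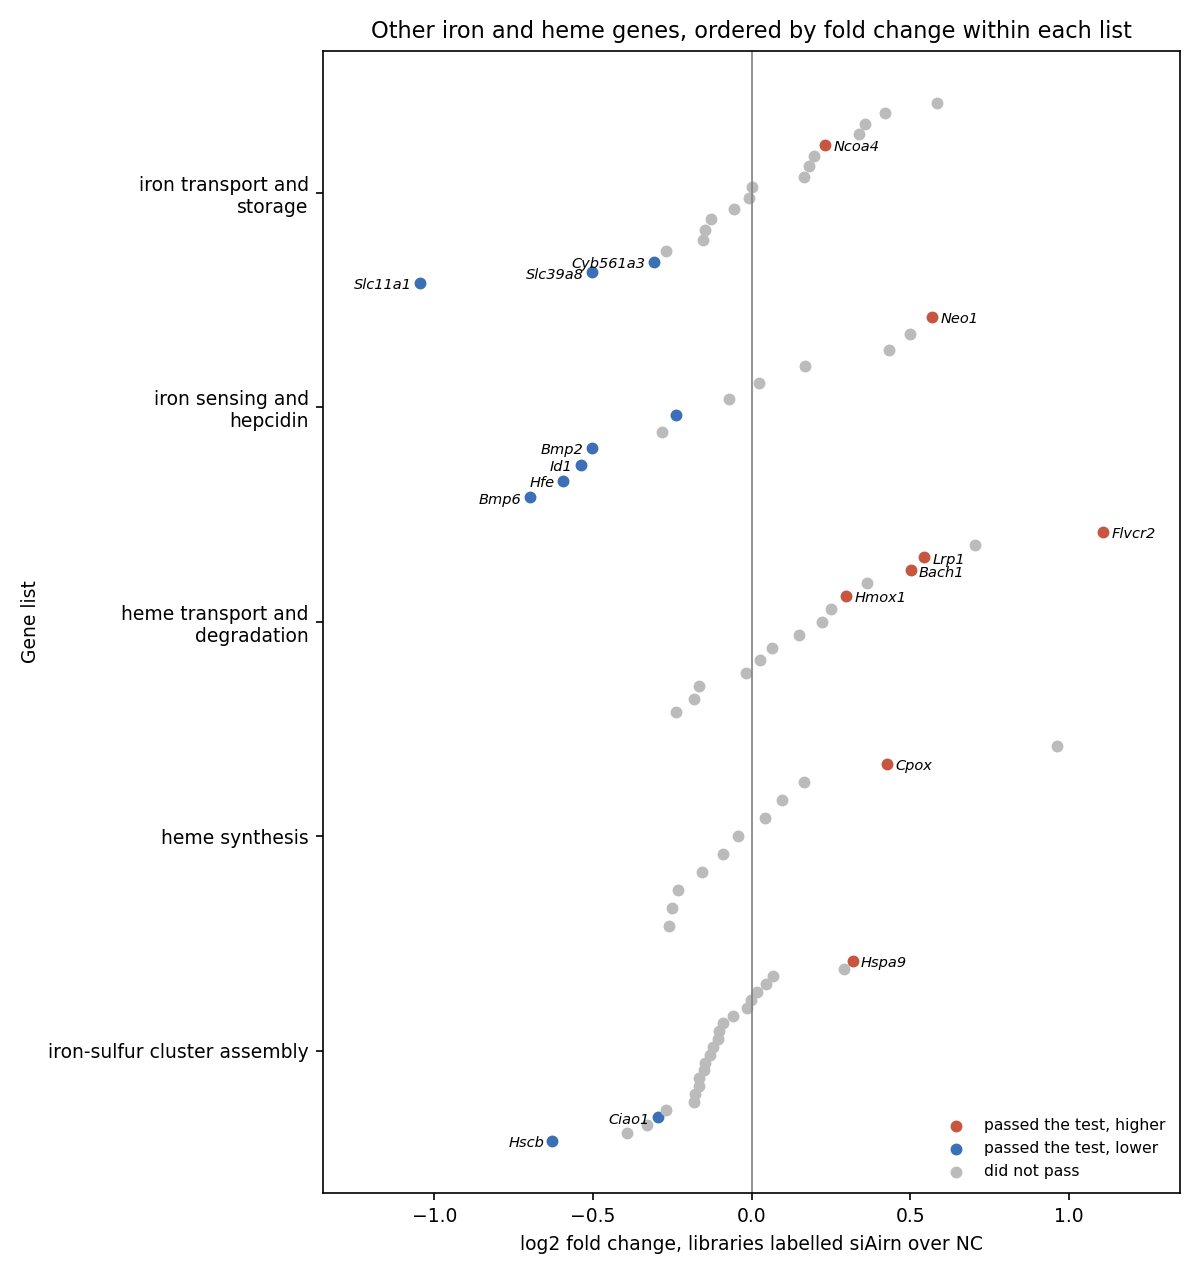
Log2 fold change of the 80 other iron and heme genes tested, libraries labelled si*Airn* over NC, 1 point per gene, ordered within each of the 5 lists. Red points (8) rose and blue points (10) fell by edgeR's quasi-likelihood test, and grey points (62) did not pass. Names mark the coloured points described in the text. Of the blue points, 5 are in iron sensing and hepcidin, where *Bmp6* is at -0.70.

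*Slc40a1* stood apart in direction from the markers of macrophages, a cell type known for high ferroportin. Of 20 macrophage and Kupffer cell markers listed, 17 were tested, all 17 had a log2 fold change below 0 and 11 passed as lower, beside 8.56% of all genes. Their median was -0.78, and their summed level was 369 and 472 CPM in NC and 269 and 238 CPM in the libraries labelled si*Airn*. That direction was not particular to macrophage markers. Of the 20 LSEC and pan-endothelial markers, 19 were also below 0, with a median of -0.56. *Clec4f*, a Kupffer cell lectin, had 4.84, 4.201, 1.94 and 1.41 CPM, and *Adgre1*, which encodes F4/80, had 5.60, 6.08, 3.76 and 2.83 CPM. The marker *C1qa* (log2 fold change -0.78) also fell. *Vsig4* (-0.84), *Csf1r* (-0.53) and *Spic* (-0.64) did not pass. *Vsig4* had 4.38 and 8.79 CPM in NC, a log2 difference of 1.01, against 4.09 and 3.28 CPM in the libraries labelled si*Airn*.

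No defining marker of the list was at 0 in all libraries. *Cd163*, the hemoglobin scavenger receptor, had 2 and 4 counts in NC against 4 and 3 in the libraries labelled si*Airn* and was not tested. Corrected for GC content and length, the macrophage markers had a median of -0.60, and 5 passed. Without NC replicate 1 or 2, 1 and 0 passed, where 15 and 9 had an unadjusted p under 0.05. The part of macrophages in the level of *Slc40a1* or of the other 8 genes was not tested. The direction of the macrophage markers was known when the set was picked, so the contrast with *Slc40a1* is no independent result.

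**Figure D4:**
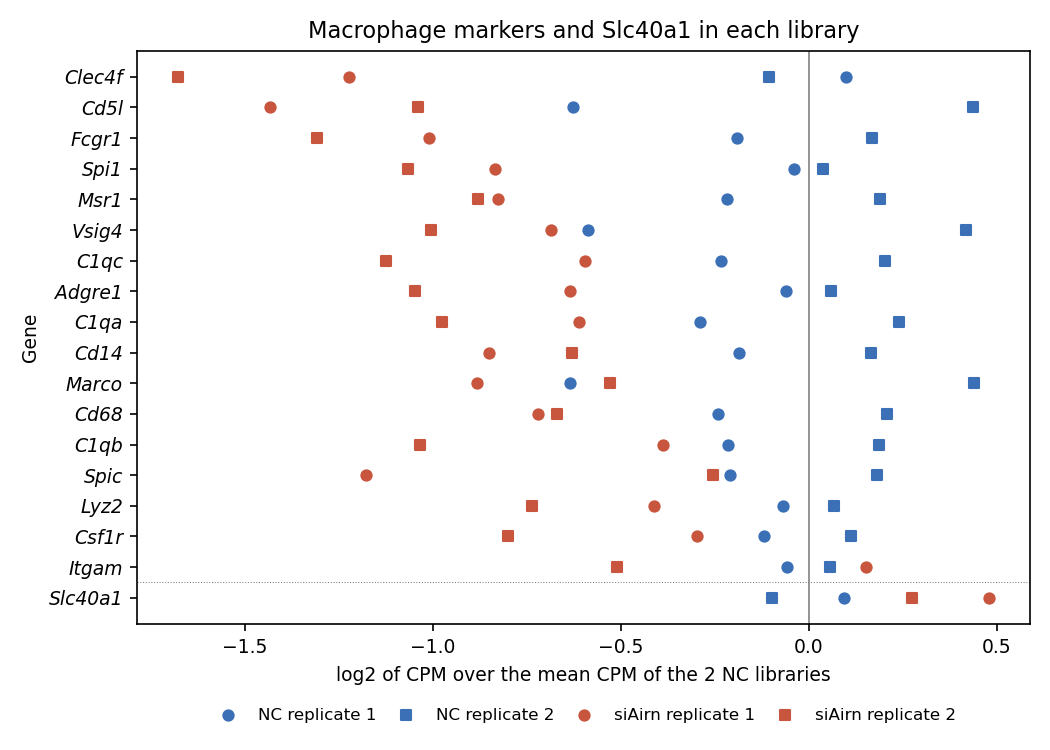
Each library's CPM of the 17 macrophage markers tested and of *Slc40a1* (bottom row), as log2 of the ratio to the mean of the 2 NC libraries, with NC in blue, si*Airn* in red, replicate 1 as circles and replicate 2 as squares. The red points of *Slc40a1* lie right of 0, and those of the markers lie left of 0 except *Itgam* in si*Airn* replicate 1, a marker named after its values were seen.

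Of the markers of hepatocytes 2 of 8 tested rose, as did 3 of 8 for stellate cells, and none fell, beside 8.27% of all genes that rose. The summed level of 10 hepatocyte markers was 568 and 725 CPM in NC and 807 and 1044 CPM in the libraries labelled si*Airn*, and that of 8 stellate cell markers was 1004, 1189, 1230 and 1599 CPM. Both sums were higher in replicate 2 than in replicate 1 of each group, as were *Trf*, *Cp* and 7 of the 9 genes. The 6 erythroid markers in the table summed to at most 1.22 CPM in any library. The part of these cells in the levels of the 9 genes or of the pathway genes was not tested.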

How the data were processed

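Single-end reads of 50 bases were generated on the BGISEQ-500 from 4 libraries of primary LSECs. The submitters' processing notes name BWA, Bowtie2 and RSEM and the build hg19, a human build, without roles; the strand setting is not given in the sources used here. The authors deposited estimated counts without normalization, of which between 76.5% and 76.8% per library are whole numbers. The other values deposited by the authors have no named unit and were read as FPKM, since they scale with count, length and library total. The authors' group means were not used.

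Counts were rounded and compared in R 4.3.3 with edgeR 4.0.16 (TMM factors from 0.985 to 1.02, filterByExpr, glmQLFit, glmQLFTest, no covariate), with Benjamini-Hochberg adjustment over 13628 genes. Standard errors are those implied by the F statistic. GC content and length came from the longest GENCODE M21 transcript for 12948 genes (95.0%), with splines of 5 degrees of freedom per library. The 9 genes and the lists (5 of pathways, 6 of cell type markers) were chosen with earlier results of these data known. Pathway genes are named where they had an adjusted p under 0.05 and a mean of at least 5 CPM, with 19 others and several markers set by name; some genes that this rule names are not reported here. The alternatives are given in the closing section, with DESeq2 1.42.0 and limma 3.58.1. The fits were also run on simulated counts, where the main fit found 184 of 197 changed genes and called 12 unchanged ones. That simulation held no effect of GC content, length or replicate number, so it cannot vouch for the calls in these data.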

Additional observations from a re-analysis of the deposited data

How the results depend on the processing

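The alternatives were DESeq2, upper-quartile normalization, no filter on low counts, a minimum of 10 counts per library and the likelihood-ratio test of edgeR. Limma was run on genes averaging 1 FPKM or more with pseudocounts of 1 and 0.1. A replicate block and a correction for GC content and length were used alone and together, and each library was left out. The study's threshold of a fold change over 1.4 and p under 0.05 was applied with the unadjusted p of edgeR. Fits without 1 library take the lone library of a group to vary like the other pair. The labels give replicates 1 and 2 in each group without saying that a number marks a shared mouse or day, and the replicate differences of the groups correlated across genes with r = 0.27. With the replicate block, the number of genes called went from 2294 to 4841, that of the 9 genes from 3 to 5, with *Aco1* and *Blvrb* added, and that of the pathway genes from 18 to 37. *Trf*, *Cp*, *Slc39a14* and *Hamp*, which did not pass without it, were called higher with the block (adjusted p in edgeR 0.000527, 0.000383, 0.00767 and 0.0471), and *Hmox2* lower (0.0141). *Trf* was also called in DESeq2 and the likelihood-ratio test, *Slc39a14* in the latter and *Hamp* in both limma fits. The block together with the correction gave 4068 genes, and 37 pathway genes. These included *Fbxl5*, lower at -0.19, and *Slc48a1*, higher at 0.13, which the block alone did not call. The correction alone gave 1010 genes, 10 pathway genes and 5 macrophage markers in place of 11. Limma gave 7 macrophage markers with either pseudocount. The study's threshold gave 1358 genes, 1 of the 9 genes and 11 pathway genes. Leaving out 1 library gave from 0 to 2410 genes, from 0 to 2 of the 9 genes, from 0 to 20 pathway genes, from 0 to 13 macrophage markers and from 0 to 18 LSEC and pan-endothelial markers. Without NC replicate 2 each of these counts was 0, and 3106 genes had an unadjusted p under 0.05 in edgeR. Among the 9 genes, the sign turned for *Ftl1* with the correction (0.12) and, without 1 library, for *Fth1* (to -0.074 and -0.10), *Slc11a2* (to -0.019) and *Steap3* (to 0.07 and 0.21). *Fech* changed sign to -0.15 with the correction and with the block and correction. *Slc48a1*, at -0.02, changed to 0.022 in both limma fits and to 0.13 with the correction, with and without the block, and ranged from -0.061 to 0.025 without 1 library (0.0016 without NC replicate 1). The cause of these shifts was not tested. Of the settings for the 9 genes, 116 moved the log2 fold change by no more than the spread between replicates and 10 by more. DESeq2 gave no adjusted p for 2244 of the genes tested. Depth limits what can be said of *Airn*, which had 3 to 11 counts per library.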
